A study of Mus musculus with 26 samples.

Results

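The cells described here were microglia of the embryonic mouse cortex that carried high levels of interferon-stimulated genes. They were taken from 12 libraries of microglia sorted at E13.5 and E15.5, in which 37948 barcodes passed a minimum of 500 genes and a ceiling of 20% of UMIs (unique molecular identifiers, each counting 1 captured RNA molecule) from mitochondrial genes. A barcode was called a microglial cell when it held at least 2 UMIs of Csf1r and C1qa together, and 34884 did. Among these, 516 cells (1.48%) held at least 8 UMIs summed over Ifit1, Ifit2, Ifit3, Isg15, Irf7, Usp18, Rsad2 and Oasl2, and these 516 cells are called interferon members below. The other 34368 microglia served for comparison. Because these 8 genes chose the cells, their levels, and any gene measured in the same cells, describe the selection and were not tested between members and other microglia.

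Type I interferons are secreted proteins that bind the receptor pair Ifnar1 and Ifnar2 on the surface of almost every cell type. The receptor activates the kinases Jak1 and Tyk2, which phosphorylate Stat2, and this joins Irf9 in a complex that binds interferon-stimulated response elements in promoters. The genes switched on encode antiviral effectors, sensors of foreign nucleic acid, antigen presentation proteins and chemokines, as well as feedback inhibitors such as Usp18 and Socs1. Microglia, the resident macrophages of the brain, can both sense nucleic acids and respond to interferon.

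All mice were wild-type C57Bl/6N. Pregnant dams were injected intraperitoneally at E12.5 with saline or with poly(I:C), which mimics viral RNA and brings about maternal immune activation (MIA), and 3 libraries were made for each of the 4 combinations of treatment and age. Each library came from the pooled prospective somatosensory (S1) cortices of several embryos of mixed sex, freed of meninges, and its Cd11b+ Cx3cr1+ Cd45 low cells were sorted. The library was therefore the replicate, it did not stand for 1 animal, and p-values measure the spread between these libraries. The sort excludes cells high in Cd45, but does not separate microglia from every macrophage of the brain's borders.

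The libraries differed widely in size. Total UMIs over the barcodes kept ranged from 6160925 to 105751888, and E13.5 MIA 1 and E13.5 MIA 2 held only 268 and 354 microglia against 1125 to 5849 in the other 10. Several libraries also shared cell barcodes. E13.5 MIA 2 shared 230 barcodes with E15.5 MIA 3, which were 61.3% of the barcodes of E13.5 MIA 2 and 15.6% of those of E15.5 MIA 3. In 227 of these 230 pairs (98.7%) the profile in E13.5 MIA 2 correlated best, among the shared barcodes, with the profile of the same barcode in E15.5 MIA 3. The same was so for 150 of the 157 barcodes that E15.5 MIA 3 shared with E15.5 saline 3 (95.5%). E13.5 MIA 2 also shared 157 barcodes with E15.5 saline 3, where the best match was the same barcode in 93 (59.2%). E13.5 MIA 1 shared 67 with E13.5 saline 1, where it was so in 1 (1.49%), with a median of 42.4 times the UMIs per barcode in E13.5 MIA 1. The interferon members were among the cells concerned, since 15 of the 16 members of E13.5 MIA 2 and 6 of the 17 members of E13.5 MIA 1 had a barcode found in another library. A total of 5 barcodes were members in both E13.5 MIA 2 and E15.5 MIA 3. How these barcodes came to be shared was not tested. The shares and the counts of called genes were recomputed without those libraries or barcodes, and other values are given per library.

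The selected cells formed the upper tail of a skewed distribution. The 8 genes had no UMI in 29812 microglia (85.5%) and 1 to 7 UMIs in 4556 (13.1%), whereas the interferon members had a median of 29 UMIs, with quartiles at 12.75 and 77 and a highest value of 827. Although they were 1.48% of the microglia, they held 33000 of the 40299 UMIs of the 8 genes (81.9%). At the edge of the rule, 53 cells had a sum of 7 (median 20513 UMIs per cell, 3.41 rule-gene UMIs per 10000) and 44 cells had a sum of 8 (median 18828 UMIs, 4.25 per 10000). Members were deeper than the other microglia, with medians of 15248 and 10575.5 UMIs per cell. Doublet calls marked a fixed quota of the highest doublet scores in each library (0.8% per 1000 cells). They were made in 7 members (1.36%) and in 1355 of all microglia (3.88%). Of the 3064 sorted barcodes that were not called microglia, with a median of 1987.5 UMIs, 2 reached a sum of 8, and 2.64% held any UMI of the 8 genes against 13.3% of the other microglia.

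**Figure D1:**
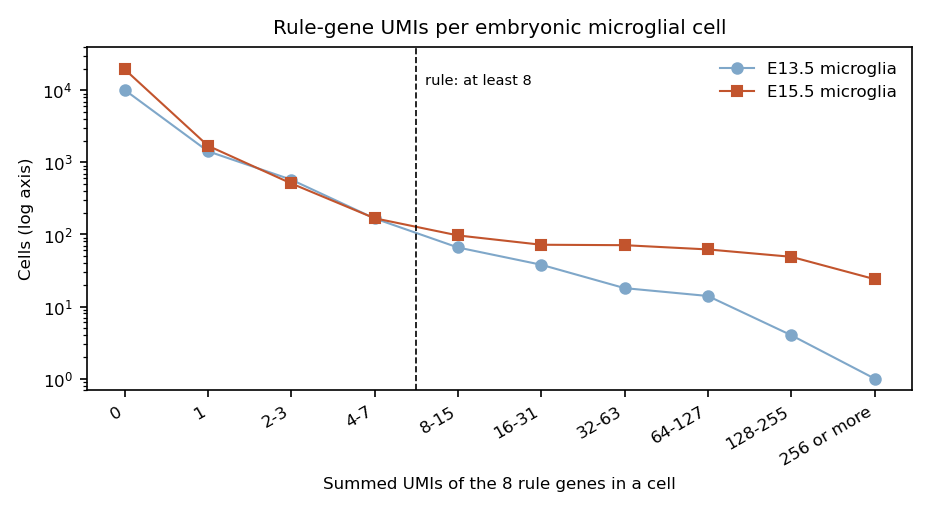
Number of microglial cells (vertical axis, log scale) by the summed UMIs of the 8 rule genes in the cell (horizontal axis, classes), for E13.5 (circles) and E15.5 (squares). The dashed line marks the selection at 8 UMIs. In the highest class, from 256 UMIs, there were 24 cells at E15.5 and 1 at E13.5.

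The response usually involved several of the genes. All 8 genes were detected in 150 members (29.1%), 4 to 7 genes in 287, and 1 to 3 genes in 79. A sum made up of 1 gene alone occurred in 5 members. Isg15, a ubiquitin-like protein that is joined to other proteins, had 9541 UMIs in members and was found in 493 of 516 cells (95.5%) against 5.87% of the other microglia. Irf7, the transcription factor that amplifies interferon production, was found in 444 members (86.0%) against 2.88%. Ifit3, the partner of the RNA cap binder Ifit1, was found in 414 (80.2%) against 1.32%. Rsad2, which encodes viperin, was the most restricted, with 96.7% of its microglial UMIs inside the members, and Oasl2 the least, with 60.5%.

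The proximal promoters of some of these genes hold the core of the sequence that interferon signalling reads. RefSeq start sites of the GRCm38.p6 assembly, the build of the deposited counts, were searched from 250 bases before to 50 bases after the start for GAAANNGAAA on either strand, the core of an interferon-stimulated response element. The word was present in 4 of the 7 rule genes with a window (Ifit1, Ifit3, Isg15 and Rsad2) and not in Ifit2, Irf7 or Oasl2, and in 1079 of 27025 genes with a window (3.99%). Below are 160 bases of each of these promoters, ending at the base before the start, and of Cxcl10, a chemokine gene described later, for which the stretch from 230 to 71 bases before the start is shown. They are written 5′ to 3′ on the strand of the gene, and capitals mark the word or its reverse complement. Isg15 is at chr4:156200819-156200978 (minus strand), Ifit1 at chr19:34640729-34640888 (plus), Ifit3 at chr19:34583369-34583528 (plus), Rsad2 at chr12:26456453-26456612 (minus) and Cxcl10 at chr5:92348960-92349119 (minus).
Isg15: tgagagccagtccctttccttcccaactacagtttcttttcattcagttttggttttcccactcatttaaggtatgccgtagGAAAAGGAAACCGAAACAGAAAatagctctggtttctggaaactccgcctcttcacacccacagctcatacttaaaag
Ifit1: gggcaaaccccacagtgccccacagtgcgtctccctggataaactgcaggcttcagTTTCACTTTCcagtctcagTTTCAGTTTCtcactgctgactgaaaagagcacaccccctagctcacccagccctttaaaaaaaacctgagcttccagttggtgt
Ifit3: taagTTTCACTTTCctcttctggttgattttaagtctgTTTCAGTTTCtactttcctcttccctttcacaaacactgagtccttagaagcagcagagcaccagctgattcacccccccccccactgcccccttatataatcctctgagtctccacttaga
Rsad2: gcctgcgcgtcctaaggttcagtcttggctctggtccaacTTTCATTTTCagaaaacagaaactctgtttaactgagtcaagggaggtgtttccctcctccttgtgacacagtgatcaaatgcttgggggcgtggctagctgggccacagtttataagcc
Cxcl10: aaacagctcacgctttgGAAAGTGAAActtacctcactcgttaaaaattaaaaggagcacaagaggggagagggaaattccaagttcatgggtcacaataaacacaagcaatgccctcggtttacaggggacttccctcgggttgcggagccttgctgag
The Isg15 stretch carries 3 overlapping copies in 1 run, the Ifit1 and Ifit3 stretches carry 2 separate copies each, and Rsad2 and Cxcl10 carry 1. The word marks letters only, and no binding was measured.

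The members were also compared over all other genes with the other microglia of their own library. Of 7965 genes with at least 10 CPM (UMI counts scaled to the same total in every library) in members or others, 127 (1.59%) were at least 2-fold higher by the median of the 12 libraries and higher in all 12, and 4 (0.0502%) were at least 2-fold lower in the same sense. The median log2 ratio over all 7965 genes was -0.09. Of the 127, 64 belonged to the lists of antiviral, GTPase, signalling, sensor, chemokine, antigen presentation or immunoproteasome genes, and 59 to no list. The word GAAANNGAAA was present in 43 of the 102 that have a promoter window (42.2%). Members and others were chosen in the same cells by correlated genes, so these counts are a description without a test.

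The antiviral effectors were the most uniform group. Of 43 genes, 40 were called higher, with a median log2 ratio of 2.73. Ifitm3, a membrane protein that blocks virus entry, ranged from 231 to 2305 CPM in members (median 846) and from 16.1 to 39.2 CPM in others (median 21.3), with no overlap between the 2 sets of libraries and a median log2 ratio of 5.34. Bst2, or tetherin, which holds budding virus at the cell surface, was already abundant in the other microglia, at 152 to 286 CPM, and reached 665 to 2313 CPM in members. Zbp1, a sensor of Z-form nucleic acid, lay between 44.3 and 239.8 CPM in members and between 0.903 and 7.60 CPM in others. Isg20, an RNA exonuclease, had a median log2 ratio of 5.33 and was found in 51.4% of members and 0.666% of others. The 3 genes not called were Ifitm2, Lgals9 and Ifi44, each with a positive median. Among abundant genes outside the rule the highest ratios were those of Ifit3b (6.71), Cxcl10 (6.69), Ifi211 (5.80), Oasl1 (5.58), Ifitm3 and Isg20. Ifit3b is a near-identical copy of Ifit3, and Ifi211 and Ifi209 (5.198) belong to a cluster of close copies, so that reads may be split between them and the level of each is uncertain.

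Interferon-inducible GTPases, which attack the vacuoles of intracellular parasites and the coats of viruses, were called higher in 10 of 12 genes described. Mx1, which blocks the nucleocapsids of viruses, ranged from 11.98 to 281 CPM in members and from 1.07 to 5.56 CPM in others. Gbp2 reached from 17.2 to 572 CPM in members and no more than 7.93 CPM in others. Iigp1 was found in 132 members (25.6%) and in 0.0757% of others, but was not called, since no UMI was found in the members of E13.5 saline 2.

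Of 18 genes of the receptors and the signalling pathway, 4 were called higher, with a median log2 ratio of 0.25. They included Stat2, which ranged from 20.97 to 224.7 CPM in members and from 8.59 to 15.4 CPM in others (median log2 ratio 2.44). The feedback inhibitor Socs1 had a ratio of 2.39 and Irf9 of 1.16. The receptor chains Ifnar1 and Ifnar2 had ratios of 0.05 and 0.12, and the kinases Jak1 and Tyk2 of -0.05 and 0.34. Among 10 nucleic acid sensors and adaptors, the 3 called higher were the cytosolic RNA helicases: Ifih1 (Mda5; ratio 2.93), Ddx58 (RIG-I; 2.91) and Dhx58 (Lgp2; 2.83). Tlr3, the endosomal receptor for double-stranded RNA, had a median ratio of 1.31 and was higher in 11 of 12 libraries. Tlr7, Aim2 and the STING gene Tmem173 had ratios between 0.02 and 0.18.

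Among the secreted factors, 3 of 9 chemokines were called higher. Cxcl10 ranged from 5.99 to 2742 CPM in members (median 265) and from 0.622 to 9.45 CPM in others. Its median log2 ratio was 6.69 and the member value was higher in all 12 libraries, although the 2 ranges overlapped. At E13.5 it was detected in only 20 of 141 members, so the level of a library could rest on 1 cell. In E13.5 saline 1 it came from 1 cell with 6 UMIs, and in E13.5 MIA 2 1 cell held 32 UMIs. Ccl12 ranged from 222 to 5534 CPM in members (median 1149) and from 44.0 to 94.7 CPM in others, without overlap. Ccl7 had a ratio of 2.77. Ccl2 (3.53) and Ccl4 (2.49) were higher in 11 of 12 libraries and were not called. Of 8 proinflammatory cytokine and NF-kB feedback genes, 0 were called (median ratio 1.06), and Tnf was higher in 10 of 12 libraries (ratio 1.65).

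Antigen presentation differed less. Of 14 class I and peptide loading genes, H2-K1 (ratio 1.21), H2-T23 (1.84) and the peptide transporter Tap1 (1.78) were called higher, while B2m, the light chain, had a ratio of 0.51 on a level of 1357 to 2379.7 CPM in members. Of 5 immunoproteasome genes, Psmb9 was called (ratio 1.14). Class II genes stood at or near the level of the other microglia, with 0 of 3 called and a median ratio of 0.06. H2-Aa and the class II regulator Ciita had no UMI in the 516 members, which allows a share of up to 0.581% of cells with a UMI, counting error only.

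Most genes that mark microglia were near the level of the other microglia or somewhat lower. None of 16 identity genes was called in either direction, and their median log2 ratio was -0.24. C1qb and C1qc were detected in all 516 members, and P2ry12 in 96.5%. P2ry12, the purine receptor of resting microglia, ranged from 376 to 1754 CPM in members and from 808 to 2159.96 CPM in others, with a ratio of -0.52 and the lower value in the members of each of the 12 libraries. Gpr34, a lysophospholipid receptor, was lower in all 12 as well (ratio -0.84). On the lists of other cell types, Plac8 (ratio 4.06), Ms4a6c (1.77) and Kdr (2.60) were called higher. On the list of apoptotic cell clearance, the receptor Axl was called (1.39). Plac8 stood on the list of blood myeloid cells, but Ly6g, S100a8, S100a9, Mpo and Elane had no UMI in the members, Ly6c2 was found in 2 and Ccr2 in 12. Kdr stood on the list of endothelium, of which Cldn5 was found in 1 member, Vtn in 2, Rgs5 in 3 and Flt1 in 12. Summed over the list, blood myeloid markers reached 8.99 to 353.5 CPM in members and 3.75 to 14.3 CPM in others, and endothelial and pericyte markers 20.5 to 516 CPM in members and 17.7 to 47.3 CPM in others. The 516 CPM belonged to E15.5 saline 1, where all 172 UMIs of Cldn5 and all 130 UMIs of Rgs5 lay in 1 cell for each gene, and the next library stood at 138.9 CPM. The part that other cells, or RNA of other cells, had in these levels was not tested.

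**Figure D2:**
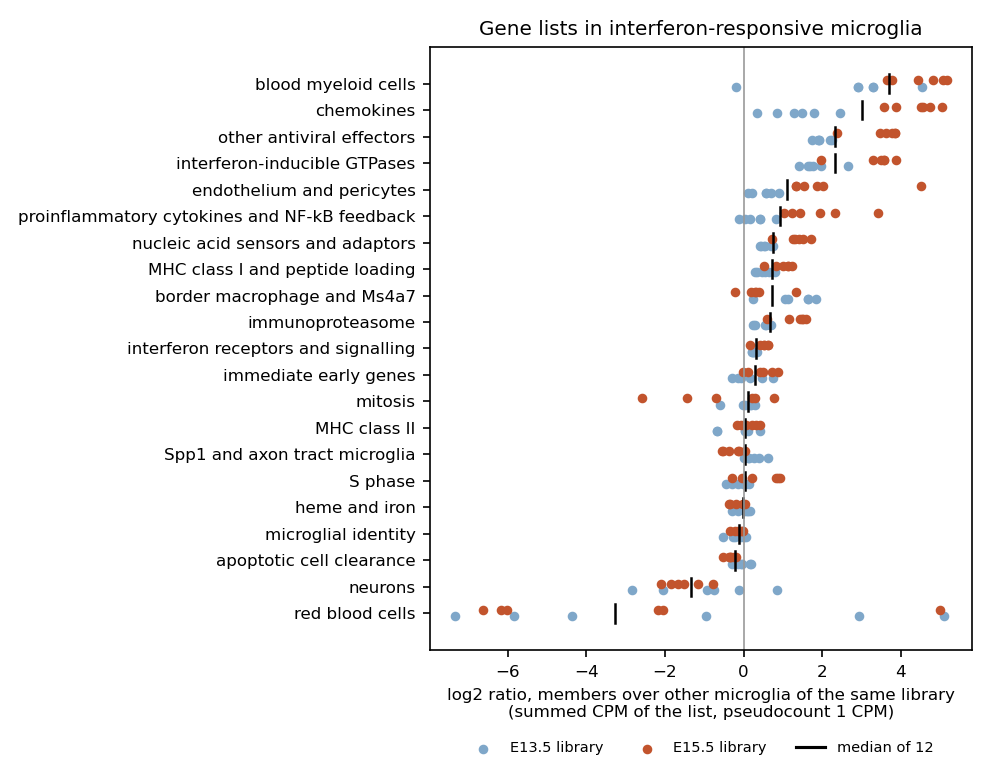
Log2 ratio of the summed CPM of each gene list in interferon members over the other microglia of the same library (horizontal axis), for the 6 E13.5 libraries (blue), the 6 E15.5 libraries (orange) and the median of 12 (black bar). Antiviral effectors and GTPases lie to the right of 0 in all 12 libraries, microglial identity lies near 0, and red blood cell genes scatter to both sides.

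The genes that were lower formed a small and mixed set. The 4 called were Neurod6, a neuronal transcription factor (median log2 ratio -1.75), Mex3b (-1.24), Ank (-1.04) and the chloride transporter Slc12a2 (-1.01). The lowest medians among abundant genes were those of the globins, with -3.76 for Hba-a2, -3.72 for Hba-a1 and -2.75 for Hbb-bs. These were not called, since in 3 libraries the members held more than the others. Single cells carried these levels. In E15.5 saline 1, at 7295 CPM, 1 cell held 9819 of the 9836 UMIs of Hbb-bs, and in E13.5 saline 1 and E13.5 saline 3 1 cell held 438 of 439 and 282 of 287. Against other microglia of matched depth the ratio of Hba-a1 turned to 0.67 and that of Hbb-bs to -0.04. Spp1, osteopontin, had a ratio of -2.59 (matched -1.11), and the lipid genes Lpl and Fabp5 had ratios of -0.90 and -0.95 (matched -1.05 and -0.29).

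The strength of the response varied widely among members and brought in different genes at different levels. Rule genes per 10000 UMIs of the cell fell under 10 in 160 members, between 10 and 30 in 119, between 30 and 100 in 161, and at 100 or more in 76. The classes are built from the rule genes, so what follows is a description. Ifitm3 and Bst2 climbed moderately between the lowest and the highest class, from 539 to 3280 CPM and from 896 to 2735 CPM. Chemokines climbed far more. Ccl12, which draws monocytes through Ccr2, went from 121 through 702 and 3584 to 10668 CPM. Cxcl10, which draws T cells through Cxcr3, went from 61.2 through 106 and 903 to 6283 CPM. In the lowest class Cxcl10 was detected in 8 of 160 cells, among them 1 with 180 UMIs and 1 with 78. In the highest class it was detected in 58 of 76. Ccl5 went from 4.72 to 2563 CPM and Ccl4 from 17.8 to 6270 CPM. Ifi27l2a, although called higher in members (ratio 2.19), did not follow this order and stood at 672 CPM in the lowest class and 376 CPM in the highest.

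The summed identity genes did not drop with strength, at 20665 CPM in the lowest class and 30560 CPM in the highest, and P2ry12 stood at 806 and 1076 CPM. Gpr34 stood at 395 and 191 CPM. Mitosis genes stood at 2336 CPM under 10 and 52.9 CPM at 100 or more. Border macrophage genes, whose best known member is the mannose receptor Mrc1, were highest in the weakest class, with 3607 CPM against 1162 CPM in the strongest. Age moves with these classes, since 59.6% of the E13.5 members and 20.3% of the E15.5 members were under 10, and so does depth, with median UMIs per cell of 23260.5 in the lowest class and 11961 in the highest. Their part in these differences was not tested. Across the 516 members, Spearman's rho between rule genes and other antiviral effectors per 10000 UMIs was 0.81, over cells that share libraries and differ in depth.

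**Figure D3:**
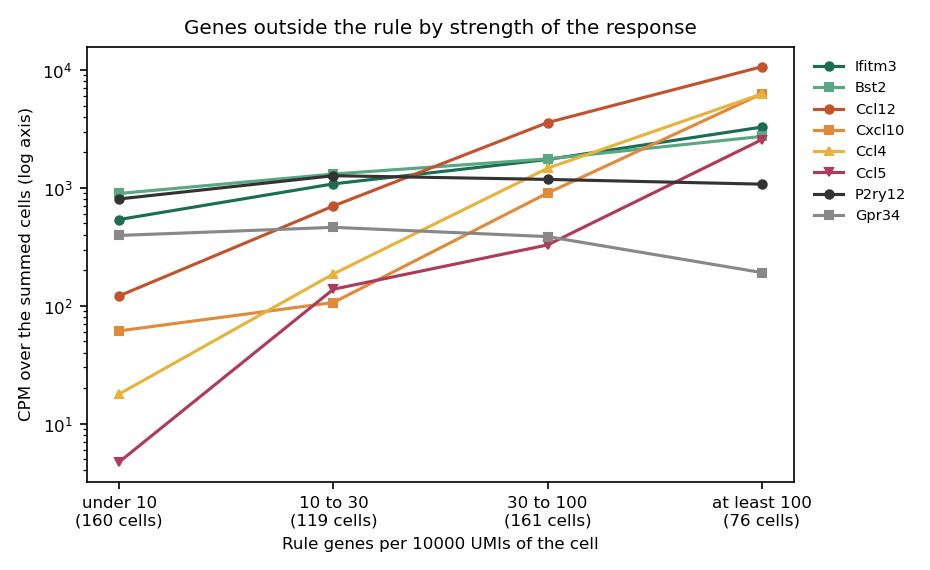
Level in CPM over the summed cells (vertical axis, log scale) of 8 genes outside the rule in the 4 classes of rule-gene UMIs per 10000 UMIs (horizontal axis, with the cells in each class). The chemokines Ccl12, Cxcl10, Ccl4 and Ccl5 climb by far more than Ifitm3 and Bst2, while P2ry12 lies between 806 and 1269 CPM.

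RNA of interferon beta itself was detected in some of the stronger responders. Ifnb1 had 166 UMIs in 16 members (3.101%, 95% exact binomial interval 1.78 to 4.99) and 4 UMIs in 4 of the 34368 other microglia (0.0116%, 0.00317 to 0.0298). Among the 3064 sorted barcodes that were not microglia, 1 held a UMI. The 16 cells came from all 6 E15.5 libraries, 9 of them after saline and 7 after MIA, and no E13.5 member held a UMI, which with 141 cells allows a share of up to 2.13%. In the strongest class of members described above, 13 of 76 cells held Ifnb1. In the next class 3 of 161 did, and in the weaker classes 0. Of the E13.5 members only 2 were in the strongest class and 20 in the next. The absence at E13.5 therefore does not tell age apart from strength. Ifnb1 was concentrated, with 109 of the 166 UMIs in the 3 highest cells and 65 in the highest. The 16 cells had a median rule-gene sum of 182, against 27.5 in members without Ifnb1, and a lowest sum of 40. None was called a doublet, though such calls marked only a fixed quota of the highest scores in each library. All 16 also held Ccl4, 13 held Cxcl10, 12 held Tnf, 9 held Il12b, which encodes a subunit of interleukin 12, and 8 held Ccl5. No UMI of the 14 interferon alpha genes in the files, of Ifng, Ifne, Ifnl2 or Ifnl3 was found in any of the 34884 microglia. Over the same cells Ifnz had 28 UMIs and Ifnk 10. The interferon alpha genes are close copies of each other, so that reads may go uncounted and a count of 0 does not show their absence.

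Other cytokine genes ranged from widespread to rare. Ccl12 was detected in 416 members (80.6%), Ccl3 in 257 (49.8%), Ccl2 in 220 (42.6%) and Ccl4 in 179 (34.7%). Ccl5 was detected in 72 members, Il12b in 31 and Cxcl9, another ligand of Cxcr3, in 23, all of them at E15.5. Members with these genes had median rule-gene sums of 114.5, 149 and 159. Only 2 of the 141 E13.5 members were in the strongest class, so these counts do not tell age apart from strength either. Cxcl10 was detected in 136 members, 20 at E13.5 and 116 at E15.5, so that 123 members carried Cxcl10 without detected Ifnb1. Conversely, the border macrophage genes Pf4 and Lyve1 were detected in 75 and 21 members, of which 56 and 17 were at E13.5. Members with Pf4 had a median rule-gene sum of 12, against 34 in the rest.

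**Figure D4:**
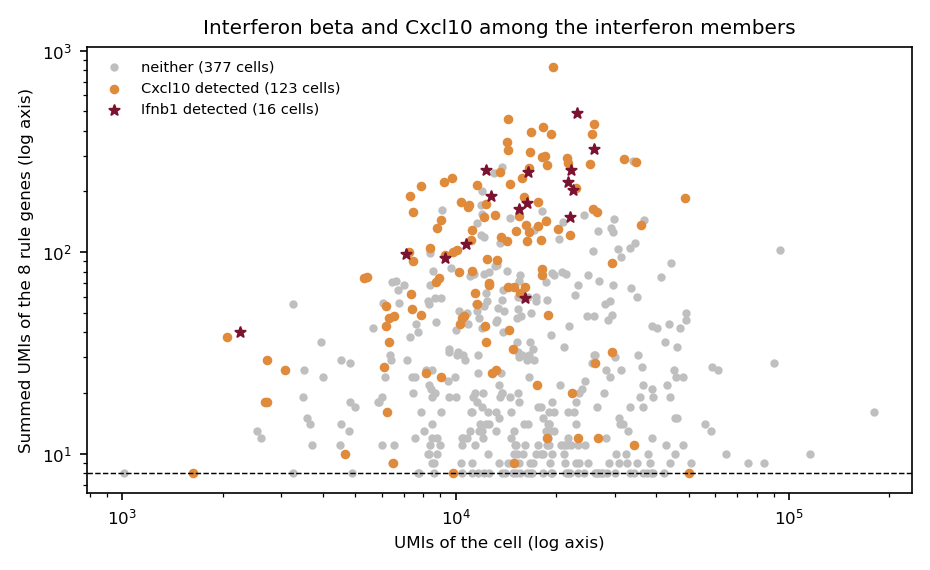
Each of the 516 members by its UMIs (horizontal axis, log scale) and its summed rule-gene UMIs (vertical axis, log scale), with the 16 cells in which Ifnb1 was detected as stars and cells with Cxcl10 alone in orange. The Ifnb1 cells lie at sums of 40 to 490, and the dashed line marks the rule at 8.

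The remaining states of embryonic microglia were compared after thinning each cell to 5000 UMIs, which left 488 members and 26707 others. At least 3 UMIs of Pf4, Lyve1 and F13a1 were found in 7.17% of members (11.0% before thinning) and 1.46% of others (3.17%). By age the shares were 17.99% and 1.80% at E13.5, and 2.87% and 1.30% at E15.5. Ccl3 and Ccl4 together passed 3 UMIs in 23.2% of members (35.3% unthinned) and 9.96% of others (16.5%), with 7.91% and 7.70% at E13.5 and 29.2% and 11.04% at E15.5. Mitosis genes passed it in 26.6% of members (41.9% unthinned) and 33.3% of others (44.0%), and S phase genes in 41.6% (64.7%) and 35.8% (48.4%). The S phase shares were in the opposite order at E13.5, at 58.3% of members and 62.8% of others, and at 34.96% and 22.9% at E15.5. Neuron genes, a measure of neuronal RNA in the suspension, passed it in 3.69% of members (20.3%) and 7.82% of others (23.8%). Blood myeloid genes passed it in 9.02% of members (21.3%) and 0.180% of others (0.643%). In most libraries Plac8 alone made nearly all of that list, such as 172 of 174 CPM in the members of E15.5 saline 2, and the highest sum, in E13.5 MIA 2, held 136 CPM of Plac8 and 213 CPM of Ccr2. Endothelial and pericyte genes passed it in 2.25% of members (14.7%) and 0.330% of others (2.05%). By age these were 0 of 139 members, which allows up to 2.16%, and 0.231% of others at E13.5, and 3.15% and 0.377% at E15.5. These shares were not tested, since the same cells were selected on correlated genes.

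The first question of the design is whether MIA changes the share of interferon-responsive microglia. The share was 1.87%, 0.742% and 0.639% in E13.5 saline 1 to 3, and 6.34%, 4.52% and 0.923% in E13.5 MIA 1 to 3. It was 1.05%, 3.29% and 1.63% in E15.5 saline 1 to 3, and 1.59%, 1.54% and 1.496% in E15.5 MIA 1 to 3. The 2 high values at E13.5 came from the 2 smallest libraries, with 17 and 16 members and exact 95% binomial intervals of 3.74 to 9.96 and 2.61 to 7.24, and the third MIA library lay within the range of saline. At E13.5 the mean was 3.93% ± 2.76 after MIA and 1.08% ± 0.681 after saline (SD, n = 3 each; difference 2.85 points, two-sided exact permutation p = 0.2, where the smallest possible p is 0.1). Border macrophage genes differed between these libraries as well. Their summed level in members was 5432, 1175 and 1829 CPM in E13.5 saline 1 to 3 and 7249.6, 4532 and 2960.1 CPM in E13.5 MIA 1 to 3. In the other microglia it was 2496, 992 and 881 CPM after saline and 2323, 1275 and 955 CPM after MIA. The log2 ratio of members to others was 1.12, 0.24 and 1.05 after saline and 1.64, 1.83 and 1.63 after MIA, which do not overlap. Over E13.5 MIA 1 to 3 the members' summed level had the order of the shares, while the ratio was alike in E13.5 MIA 1 and 3. Among the saline libraries E13.5 saline 1 was highest in both level and share, and E13.5 saline 2 and 3 had opposite orders. Between MIA and saline members, 11 of 11 border macrophage genes had a positive log2 fold change (median 0.61), against 3713 of 7287 over all genes. Of the identity genes 15 of 16 had a negative one (median -0.26), and 0 of either list passed. The part of these genes in the shares was not tested. At E15.5 the means were 1.54% ± 0.0474 and 1.99% ± 1.16 (difference -0.448 points, exact permutation p = 0.7, n = 3 each). Over both ages, with labels permuted within age, the difference was 1.199 points (exact permutation p = 0.27, 400 arrangements). Thinned to 5000 UMIs per cell with a threshold of 4, it was 0.495 points (exact permutation p = 0.475).

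The shared barcodes bear on the E13.5 values. With cells of shared barcodes left out of all libraries, E13.5 MIA 2 had 1 member among 129 microglia (0.775%) and E13.5 MIA 1 had 11 among 198 (5.56%). Without both of these libraries the difference over the ages was -0.304 points (exact permutation p = 0.5375). In the barcodes they shared, E13.5 MIA 2 held a median of 3.51 times the UMIs of E15.5 MIA 3 and 6.74 times those of E15.5 saline 3. Keeping each shared barcode only in its deepest library left E13.5 MIA 2 at 4.56%, with 0 of its members dropped. E15.5 MIA 3 then stood at 1.36%, with 5 of its 21 members dropped. The difference over the ages was 1.16 points (exact permutation p = 0.28). The MIA effects of the 2 ages did not differ beyond the spread between libraries (3.29 points, exact permutation p = 0.145). The level of the 8 genes over all microglia, which needs no threshold per cell, was 0.498, 0.219 and 0.331 UMIs per 10000 in E13.5 saline 1 to 3, and 1.18, 0.874 and 0.329 in E13.5 MIA 1 to 3. It was 0.492, 2.72 and 1.22 in E15.5 saline 1 to 3, and 1.36, 1.42 and 1.09 in E15.5 MIA 1 to 3. The difference between MIA and saline over both ages was 0.129 (exact permutation p = 0.78), and it turned to -0.117 without E15.5 saline 1 (exact permutation p = 0.825). With each of the 12 libraries left out in turn it reached up to 0.439 (exact permutation p between 0.06 and 0.935).

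**Figure D5:**
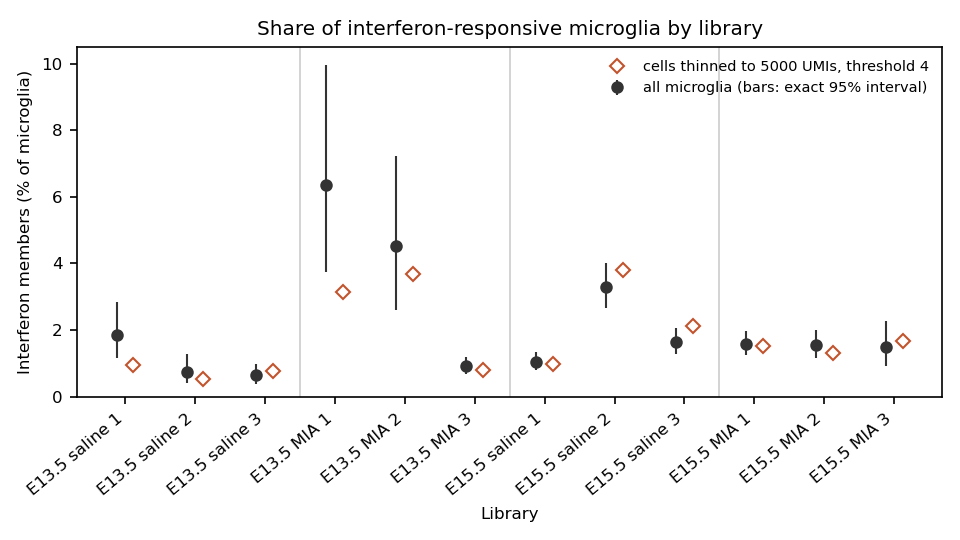
Share of microglia that were interferon members (vertical axis, %) in the 12 libraries, over all microglia with exact 95% binomial intervals (filled circles) and after thinning each cell to 5000 UMIs (open diamonds). E13.5 MIA 1 and E13.5 MIA 2 stand above the rest with the widest intervals, at 6.34% and 4.52%, and drop to 3.14% and 3.67% after thinning.

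Between the ages, the share of members did not differ beyond the spread. The labels do not tell age apart from sequencing run. The difference in share, E15.5 less E13.5, was -0.741 points (exact permutation p = 0.485, ages permuted within treatment) and 0.249 points after thinning (exact permutation p = 0.755). The median over members of rule genes per 10000 UMIs was 4.66, 6.67 and 11.9 in E13.5 saline 1 to 3, and 3.30, 5.22 and 8.83 in E13.5 MIA 1 to 3. It was 15.49, 37.4 and 51.5 in E15.5 saline 1 to 3, and 38.5, 58.2 and 29.6 in E15.5 MIA 1 to 3. All 6 E15.5 libraries lay above all 6 E13.5 libraries (difference in means 31.7). This is given as a description with no test, since the same genes chose the cells. A threshold in UMIs admits weaker responders where cells are deeper, and the members' median depth per library was 19267.5 to 40972 UMIs at E13.5 and 9544 to 18810 at E15.5. On thinned cells the median sum was 9.75 UMIs higher at E15.5. The level of the 8 genes over all microglia was 0.812 UMIs per 10000 higher at E15.5 (exact permutation p = 0.02, a comparison added after the values were seen). Without E13.5 saline 1, 2 or 3 in turn it was 0.849, 0.779 and 0.807 and no longer passed (exact permutation p = 0.055, 0.065 and 0.065). It was 0.480 when averaged over cells (exact permutation p = 0.215). All 8 genes were detected in 132 of 375 members at E15.5 (35.2%) and in 18 of 141 at E13.5 (12.8%).

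Within the members, no gene passed the test for MIA at either age with genes of low counts filtered out, while without that filter edgeR made 20 calls at E13.5 and 131 at E15.5. At E13.5, 0 of 7287 genes (0%) passed an adjusted p of 0.05 in edgeR's quasi-likelihood test, with 132 genes at an unadjusted p under 0.05, and DESeq2 called 0. Prps1, an enzyme of nucleotide synthesis, had the lowest p of the 7287 and is given for that reason only. Its level was 6.54, 8.99 and 7.75 CPM in E13.5 saline 1 to 3 and 35.1, 25.03 and 20.5 CPM in E13.5 MIA 1 to 3. The 3 genes of lowest p were Prps1 (log2 fold change 1.76), Ccdc43 (1.90) and H2-Q7 (-7.16), all with an edgeR adjusted p of 1. At E15.5, 0 of 7287 genes (0%) passed in edgeR, with 199 at an unadjusted p under 0.05, and DESeq2 called 0. There the 3 lowest p belonged to the globins Hba-a1, Hbb-bs and Hbb-bt, of which Hba-a1 stood at 2848, 12.54 and 1.31 CPM in saline 1 to 3 and at 2.99, 3.19 and 0 CPM in MIA 1 to 3. The value in saline 1 came from 1 cell, which held 3837 of its 3840 UMIs.

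At E15.5 the antiviral genes leaned to the side of MIA without passing the test, and the size of this rested on E15.5 saline 1. These genes rise with the rule genes that chose the cells, and a threshold in UMIs admits weaker responders where cells are deeper. The members' median depth was 18810, 15741.5 and 9544 UMIs in E15.5 saline 1 to 3, and 12107.5, 13623 and 14889 in E15.5 MIA 1 to 3. Sums over members weight each cell by its UMIs, and 1 member of E15.5 saline 1 held 180410 UMIs at a rule-gene sum of 16. The part of selection and depth in this lean, and in the interaction below, was not tested. Isg15, a rule gene, was at 548, 1674 and 1088 CPM in the members of E15.5 saline 1 to 3, and at 1980, 1636 and 1556 CPM in those of E15.5 MIA 1 to 3, which overlap. Summed antiviral effectors were at 6391, 12810 and 11788 CPM after saline and at 12485, 14503 and 15062 CPM after MIA, which overlap too. Their log2 ratio to the other microglia was 2.38, 3.62 and 3.47 after saline and 3.77, 3.86 and 3.85 after MIA. Taken by replicate number, these sums and ratios were higher after MIA at each number. Isg15 was not, with E15.5 MIA 2 below E15.5 saline 2. Nothing in the labels says that the numbers mark pairs. Of 43 antiviral effectors, 41 had a positive log2 fold change (median 0.48) and 0 passed, against 3420 of 7287 positive over all genes (median -0.02). The 12 mitosis genes had negative values (median -1.41) of which 0 passed. Without E15.5 saline 1 the medians were 0.23 for antiviral effectors (37 of 43 positive) and -0.40 for mitosis genes (11 of 12 negative). Summed mitosis genes were at 2579, 1059 and 128.7 CPM in E15.5 saline 1 to 3 and at 597, 366 and 307 CPM in E15.5 MIA 1 to 3, with a saline library lowest. Chemokines (9 of 9, median 0.75) and immediate early genes (8 of 8, median 0.41) were positive too, with 0 passing. The chemokine median was 0.22 without E15.5 saline 1 (6 of 9 positive) and 1.67 without E15.5 saline 2 (9 of 9). E15.5 MIA 1 stood apart in immediate early genes, at 1324 CPM in members and 1331 CPM in others against 417 to 656 and 347 to 443 CPM in the other E15.5 libraries. It also did so in neuron genes, at 650.3 and 1108 CPM against 12.3 to 139 and 56.0 to 400.3 CPM. Without E15.5 MIA 1 the medians were 0.61 for antiviral effectors and 0.50 for chemokines, and without E15.5 saline 3 or E15.5 MIA 3, which share barcodes, they were 0.66 and 0.41 for antiviral effectors. The part of these differences between libraries was not tested. At E13.5, 21 of 43 antiviral effectors were positive (median -0.01) and 0 passed. Whether MIA acted differently on members and on the other microglia at E15.5 was tested as an interaction, with the library as a block. Of 12132 genes 0 (0%) passed (edgeR, 588 at an unadjusted p under 0.05), and DESeq2 called 0. Of the antiviral effectors, 43 of 43 had a positive interaction (median 0.80) and 0 passed, against 5687 of 12132 positive over all genes (median -0.03). Without E15.5 saline 1, 38 of 43 were positive (median 0.30). Lists of other kinds were one-sided too. Neuron genes were positive in 10 of 10 (median 0.71) and immediate early genes negative in 10 of 10 (median -0.56), with 0 passing. The lowest p in edgeR belonged to Isg20, with an interaction of 1.36 and an adjusted p of 0.962. Its level in members was 62.3, 154 and 149.8 CPM in E15.5 saline 1 to 3 and 211, 267 and 286 CPM in E15.5 MIA 1 to 3. Without E15.5 saline 2 the interaction had 67 calls.

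A few genes differed between the ages in the members of saline litters. The rule admits weaker responders where cells are deeper, as they were at E13.5. Single deep cells also weigh more in the sums, such as members of 115609 UMIs in E13.5 saline 3 and 180410 UMIs in E15.5 saline 1. The labels do not tell age apart from sequencing run. The part of depth, strength and run in these differences was not tested. In edgeR 7 of 7287 genes (0.0961%) rose from E13.5 to E15.5 and 1 (0.0137%) fell, with 1007 genes at an unadjusted p under 0.05. Ccl4, an inflammatory chemokine, was at 4.91, 59.9 and 32.9 CPM in E13.5 saline 1 to 3 and at 340, 2433 and 1998 CPM in E15.5 saline 1 to 3. Its log2 fold change was 5.83 (SE 0.79, edgeR adjusted p = 0.00568). In the other microglia of the same libraries Ccl4 lay between 22.8 and 78.6 CPM. Over all members Ccl4 also climbed with the strength of the response, from 17.8 CPM in the lowest class to 6270 CPM in the highest. The 2 ages were spread unevenly over these classes.

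Ifit2, a rule gene, was at 49.1, 77.9 and 141 CPM at E13.5 and at 223, 629 and 918 CPM at E15.5. It is among the 7 calls, but it helped to choose the cells, so its values are a description. Kdr, a receptor for vascular endothelial growth factor, was at 8.18, 15.0 and 13.6 CPM and at 75.6, 53.9 and 93.3 CPM (2.73, SE 0.44, edgeR adjusted p = 0.0183). In the other microglia Kdr stayed between 2.35 and 4.54 CPM in these libraries.

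Further calls had a like order in the other microglia of the same libraries. Sparc, a matrix glycoprotein, was at 438, 539 and 541 CPM in members at E13.5 and at 1868, 2372 and 2839 CPM at E15.5 (log2 fold change 2.33, edgeR adjusted p = 0.00568). In other microglia Sparc lay at 570, 602 and 673 CPM and at 1718, 2612 and 2962 CPM. Fscn1, an actin bundling protein, rose by 1.97 (edgeR adjusted p = 0.0114), and in other microglia it lay at 25.1, 24.6 and 21.4 CPM at E13.5 and at 55.8, 71.1 and 61.4 CPM at E15.5. Ecscr (3.51) and Ltc4s (1.78), a leukotriene synthase, also rose, and Lpl, lipoprotein lipase, fell by 1.93 on the log2 scale (edgeR adjusted p = 0.0281, or 0.0745 with shared barcodes kept in their deepest library only). Lpl in other microglia was at 394, 353 and 347 CPM at E13.5 and at 127, 150 and 137 CPM at E15.5. The difference between members and others in these changes was not tested. The number of calls depended on single libraries, with 0 calls without E13.5 saline 1 or without E13.5 saline 2, 18 without E13.5 saline 3, 4 without E15.5 saline 2 or 3, and 394 without E15.5 saline 1. DESeq2 called 127 genes.

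By list, few genes passed with age. Of the antiviral effectors, 40 of 43 were positive (median 1.24) with 0 passing, and 9 of 9 chemokines were positive (median 3.15) with 1 passing, against a median of 0.01 over all genes. All 16 identity genes were positive (median 0.83) with 0 passing, while all 11 border macrophage genes (median -1.38) and all 12 mitosis genes (median -0.68) were negative with 0 passing. The summed border macrophage genes in members were at 1498, 1478 and 755 CPM in E15.5 saline 1 to 3, within which range E13.5 saline 2 also lay, and E13.5 saline 1 was far the highest at 5432 CPM. The median of the mitosis genes was -0.20 without E15.5 saline 3 and -1.82 without E15.5 saline 1. The members differed in depth between the ages, and its part in these values was not tested.

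For comparison, the same rule at P14 gave 17, 19, 37 and 28 cells in the 4 saline libraries and 9 and 30 in the 2 MIA libraries, which were 0.160% to 0.794% of P14 microglia. The cells there were shallower, with a median of 3693 to 6842 UMIs per microglial cell and library, so no order between P14 and the embryo was read from these shares.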

How the data were processed

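Single-cell RNA-seq libraries (10x Genomics 3′ chemistry) were processed by the authors with Cell Ranger against the mm10 mouse genome, and the deposited filtered matrices hold raw UMI counts per gene and barcode. The matrix headers give Cell Ranger 3.1.0. From these counts, barcodes under 500 genes or above 20% mitochondrial UMIs were dropped, without removing doublets (Scrublet scores, 0.8% per 1000 cells, served as an alternative). The members and gene lists were chosen with earlier results of these data known.

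UMIs were summed per library over members and over other microglia, and ratios were taken on log2(CPM + 1). Genes with at least 10 CPM were described. Shares and levels were compared by two-sided exact permutation of libraries, with treatments permuted within age and ages within treatment. Genes were tested on summed counts with edgeR 4.0.16 (quasi-likelihood, Benjamini-Hochberg adjustment, threshold 0.05), in libraries with at least 10 members, and with DESeq2 1.42.0 as an alternative. Other work used Python 3.11.15, scanpy 1.11.5, scipy 1.17.1 and R 4.3.3, and the gene tests were tested on simulated data. Named genes were the 15 highest and 10 lowest ratios at a mean of at least 50 CPM, the listed genes by role, and in each test up to 10 genes of lowest adjusted p per direction, or the 3 of lowest p where none passed. Other genes were named after their values were seen.

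Total UMIs per library, given in the report, set the precision, and intervals and floors (3 counts) cover counting error only. Nothing in the labels says that replicate numbers mark a shared litter or day. At E15.5 the deviations of same-numbered saline and MIA libraries from their group means correlated over genes in every pair (members r = 0.497, 0.234 and 0.247). At E13.5 those of numbers 1 and 3 did so too (members r = 0.321 and 0.301). The libraries of number 3 at E15.5 share barcodes. The main tests did not pair libraries by number, and the replicate number as a block served as an alternative. Promoter sequences came from RefSeq on GRCm38.p6. Some listed genes are not reported here.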

Additional observations from a re-analysis of the deposited data

How the results depend on the processing

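Small libraries limit the E13.5 comparisons, and a threshold in UMIs ties membership to depth. The share of members, MIA less saline, was 0.595 to 1.95 points with each library left out in turn and -0.304 without E13.5 MIA 1 and 2. The share, E15.5 less E13.5, was -1.49 to -0.137 points with each library left out, but positive with thinned cells (0.249, or 0.603 with a threshold of 15), with members at 10 or 30 rule UMIs per 10000 (0.326 and 0.625) and without E13.5 MIA 1 and 2 (0.762). The cause was not tested. With each library left out, the level over all microglia gave -0.117 to 0.439 UMIs per 10000 for MIA less saline and 0.502 to 1.06 for E15.5 less E13.5 (0.480 as a mean over cells), and the median rate of members 27.5 to 36.5 (9.75 UMIs as thinned sums).

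Against other microglia, 123 to 149 genes were higher and 3 to 12 lower with each library left out. There were 260 higher and 45 lower in libraries with at least 30 members, where fewer libraries had to agree, 0 lower with a pseudocount of 10 CPM, 11 with a threshold of 12, and 10 without E13.5 MIA 2 and E15.5 MIA 3. In edgeR without a filter on low counts there were 20 calls for MIA at E13.5, 131 for MIA at E15.5, 466 for age in saline members and 155 for the interaction. With the filter, the same tests had 0 to 0, 0 to 0, 0 to 394 and 0 to 67 calls with each library left out. Age in saline members had 127 calls in DESeq2 and 135 with a threshold of 5. The causes were not tested.

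With the replicate number as a block, the MIA difference in share was 1.199 points (exact permutation p = 0.3125), that in level 0.129 (exact permutation p = 0.6875), and the gene tests at E13.5 and E15.5 had 0 and 0 calls, so the block changed no call. At E13.5 same-numbered libraries correlated at r = 0.321, 0.0909 and 0.301 over genes in members. The libraries of number 2 at that age did not correlate best with their own number. Of 699 alternative values for 42 named genes and contrasts, 28 no longer passed, 8 newly passed and 13 moved by more than the spread between libraries. No called value changed sign, but 3 uncalled ratios did against others of matched depth (Hba-a1 0.67, Hbb-bt 0.54 and Sox11 0.05).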

Other observations

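Among the 127 genes higher in members, 59 stood on no list, and those named here were chosen after their values were seen. They included further parts of innate defence. Ddx60, a helicase-like antiviral protein, had a median log2 ratio of 2.80 over the 12 libraries, and Tnfsf10, the death ligand TRAIL, of 3.04. The RNA editing enzyme Adar had a ratio of 1.24, the nuclear body protein Pml of 1.98, and the ubiquitin ligase Rnf213 of 2.99. The complement components Cfb and C2 had ratios of 2.82 and 2.24.

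Receptors and enzymes of phagocytes were also in this set. The Fc receptors Fcgr4 and Fcgr1 had ratios of 2.11 and 1.12, and Cybb, the catalytic subunit of the phagocyte oxidase, of 1.88. Gch1, which makes the cofactor of nitric oxide synthase, stood at 1.93, and Nampt, an enzyme of NAD salvage, at 1.47. Like the listed genes, they were measured in the cells that the rule chose, and no test was made.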
